A study of Homo sapiens with 4 samples.

Results

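In Ishikawa cells, a widely used line from a human endometrial adenocarcinoma, 415 stretches of open chromatin were called after dexamethasone alone and lay close to chromatin that was also called open under another treatment. They were chosen by their calls: the peak lists of the dexamethasone, estradiol and vehicle libraries were merged wherever peaks shared at least 1 bp, on chromosomes 1 to 22 and X, and a region was kept if it held dexamethasone peaks only and its edge lay within 10 kb of the edge of an estradiol or vehicle peak. This gave 415 of the 4038 dexamethasone-only regions, out of 8975 merged regions in all. The other 3623 dexamethasone-only regions lay farther than 10 kb from any estradiol or vehicle peak. The 2 kinds are called neighbouring and isolated regions here.

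The assay was ATAC-seq, which maps open chromatin by the places where a transposase can insert sequencing adapters. The cells had been kept for days in phenol red-free medium with hormone-stripped (charcoal/dextran-treated) serum, so that little steroid was present beforehand, and this holds for all groups. The 4 groups, each with 1 library, were treated for 1 hour with 10 nM 17-beta-estradiol plus 100 nM dexamethasone, with 100 nM dexamethasone, with 10 nM estradiol, or with DMSO vehicle. Duplicate removal left 8240912, 14980230, 20185339 and 10694743 tags in that order, and 146, 8428, 4772 and 1923 peaks were called. The estradiol plus dexamethasone library, called the combination library here, stands apart: it had the fewest tags and peaks, and its modelled fragment length was 51 bp against 84 to 104 bp in the other libraries. The part of depth in missing calls was not tested, and a region that is not called is only below the threshold of that library.

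Dexamethasone is a synthetic ligand of the glucocorticoid receptor, a transcription factor that enters the nucleus when it binds hormone. The receptor binds glucocorticoid response elements, for the most part in chromatin that is already accessible in the cell type, often beside factors such as AP-1, and it recruits remodelling complexes that can open chromatin further. Estradiol acts through another receptor, the estrogen receptor, which drives growth of the endometrial epithelium. Regulatory elements often stand in groups along the genome, so a newly called region beside a region that is open anyway can be a separate element or the flank of the same one. The positions are on hg19. No genes or sequences of that build were used here, so the regions are described by position, and the promoters of marker genes of the endometrial epithelium were not examined.

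The choice of members used the calls of the dexamethasone, estradiol and vehicle lists. Of all merged regions, 45.0% were called with dexamethasone only; 73.1% were called with dexamethasone and not vehicle, and 47.2% with dexamethasone and not estradiol. These shares are set by the rule and the lists, and nothing is read from them. With 1 library for each treatment there is no replicate spread and no test between treatments. The 95% intervals below are exact Clopper-Pearson intervals for shares and order-statistic intervals for medians, and they cover counting error over regions only.

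Standing beside an estradiol or vehicle region was about as common among dexamethasone-only regions as among regions in general. A separate region with an estradiol or vehicle peak lay within 10 kb of 10.3% of the dexamethasone-only regions (415 of 4038, interval 9.36 to 11.3) and of 10.1% of all merged regions (906 of 8975, 9.48 to 10.7). The share was 10.7% of the 514 estradiol-only regions (8.16 to 13.7), 9.26% of the 2526 regions shared by dexamethasone and estradiol (8.16 to 10.5) and 10.9% of the 1640 regions called in all 3 lists (9.45 to 12.5). It was 6.03% of the 199 regions shared by dexamethasone and vehicle (3.15 to 10.3), 18.9% of the 37 vehicle-only regions (7.96 to 35.2) and 19.0% of the 21 shared by estradiol and vehicle (5.45 to 41.9). Under the mirrored rule, 88 of the 514 estradiol-only regions lay within 10 kb of a region with a dexamethasone or vehicle peak (17.1%, 14.0 to 20.7), against 16.5% of all merged regions with the same lists as neighbours (1481 of 8975). Another dexamethasone-only region lay within 10 kb of 9.64% of the neighbouring regions (40 of 415, 6.98 to 12.9) and of 7.87% of the isolated ones (285 of 3623, 7.01 to 8.79).

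**Figure D1:**
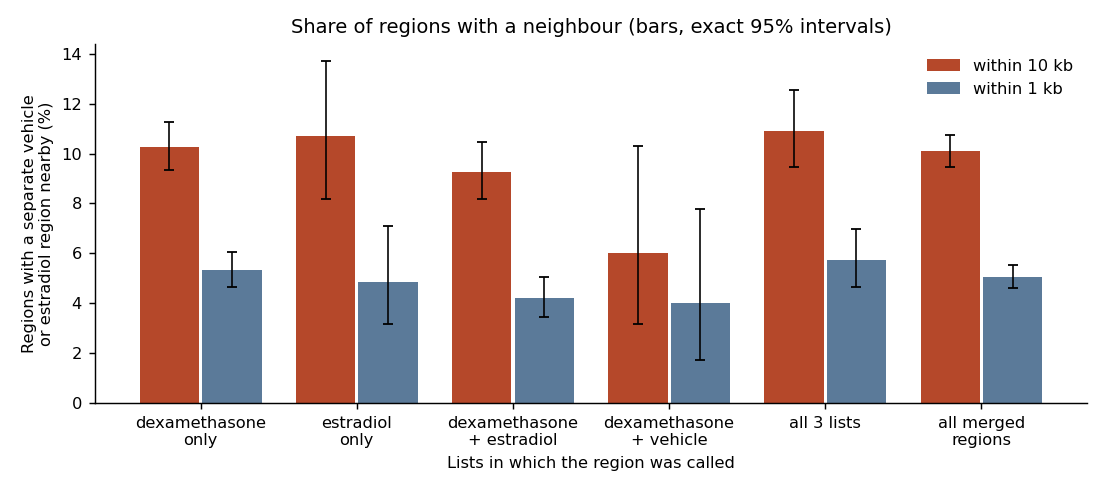
Share of merged regions (y axis, percent) that have a separate region with an estradiol or vehicle peak within 10 kb (red) or 1 kb (blue), by the lists in which the region was called (x axis); bars are shares and lines are exact 95% intervals. The dexamethasone-only bars, 10.3% and 5.32%, stand beside 10.1% and 5.05% of all merged regions.

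The neighbouring regions are described here in 2 sets by distance. There were 215 within 1 kb of their nearest estradiol or vehicle peak (51.8%, 46.9 to 56.7) and 200 beyond it, a split chosen after the distances had been seen. The median distance between facing edges was 216 bp in the first set (205 to 237) and 6460 bp in the second (5886 to 6944). The second set ends at the 10 kb limit of the rule, which bears on its median. It joins 64 regions from 1 to 5 kb with 136 from 5 to 10 kb, which differ in background and fold enrichment (below). Within 250 bp there were 125 regions, and within 500 bp 182. The fullest 50 bp bin ran from 201 to 250 bp and held 39. The nearest peak lay at higher coordinates for 203 regions and at lower ones for 212, so neither side prevailed.

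Short spacing was not confined to dexamethasone-only regions. Among the regions of each class that had an estradiol or vehicle region within 10 kb, it lay within 1 kb for 51.8% of the dexamethasone-only ones, for 45.5% of the 55 estradiol-only ones (32.0 to 59.4), for 45.3% of the 234 shared by dexamethasone and estradiol (38.8 to 51.9) and for 52.5% of the 179 called in all 3 lists (44.9 to 60.0). A gap in the distances was also shared. Per kb of distance, 16.0 dexamethasone-only regions lay from 1 to 5 kb, 27.2 from 5 to 10 kb and 22.5 from 10 to 20 kb. All other merged regions together gave 12.8, 40.4 and 29.5 regions per kb over the same ranges.

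**Figure D2:**
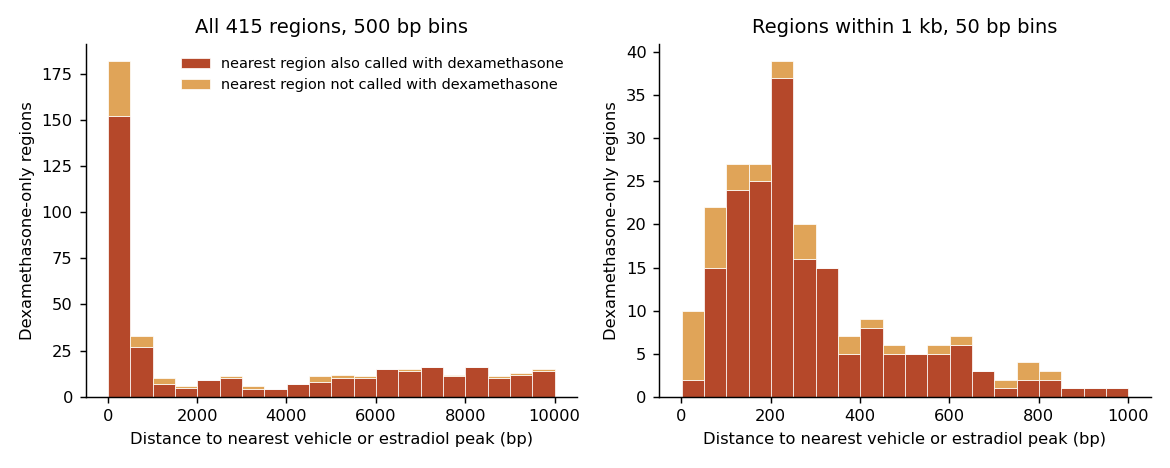
Number of neighbouring dexamethasone-only regions (y axis) by distance in bp between facing edges to the nearest estradiol or vehicle peak (x axis), for all 415 regions (left) and those within 1 kb (right). Colours show whether the region that holds that peak was also called with dexamethasone (361 regions) or not (54); the counts are highest under 500 bp, low from 1 to 5 kb and level after that.

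The nearest peak was an estradiol peak more often than a vehicle peak. The region that held it was called after dexamethasone as well about as often as estradiol and vehicle regions in general: for 361 of the 415 neighbouring regions (87.0%, 83.4 to 90.1), against 4365 of all 4937 merged regions with an estradiol or vehicle peak (88.4%). The nearest peak came from the estradiol list for 330 regions and from the vehicle list for 85. The estradiol list is the longer one, with 4761 peaks on these chromosomes against 1914 for vehicle. Within 10 kb, 263 regions had estradiol peaks only, 131 had both and 21 had vehicle peaks only. The region that held the nearest peak was shared by dexamethasone and estradiol in 220 cases, by all 3 lists in 127, and by dexamethasone and vehicle in 14. In the remaining 54 cases (13.0%, 9.93 to 16.6) it was not called with dexamethasone: 45 were estradiol-only, 8 vehicle-only and 1 was shared by estradiol and vehicle. In the same order, these classes held 2526, 1640, 199, 514, 37 and 21 of all 4937 merged regions with an estradiol or vehicle peak. In the larger classes the mix was thus close to that of the lists, and nothing particular to the neighbouring regions is read from it. Nearly all neighbouring regions, 382 of 415, had 1 estradiol or vehicle region in reach and 33 had 2.

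Where a neighbour was missing from the dexamethasone list, the calls of the different libraries stood side by side. This concerned 36 of the 215 regions within 1 kb (16.7%, 12.0 to 22.4) and 15 of the 32 within 100 bp (46.9%, 29.1 to 65.3). Of all 4937 merged regions with an estradiol or vehicle peak, 88.4% were also called with dexamethasone. A dexamethasone peak that reached across so short a gap would have merged both regions. The share within 100 bp is therefore partly set by the rule. For the 36, the median distance between the dexamethasone summit and the summit of the nearest estradiol or vehicle peak was 279.5 bp (199 to 416), and it ran from 67 to 1037 bp. Their median pileup was 18 extended tags in dexamethasone, and that of the nearest peak in its own list was 17. Pileups of different libraries are given side by side here and are not scaled for depth. The 5 regions with the shortest distance show the arrangement. On chromosome 4, the region from 88343831 to 88343983 had a pileup of 16 and a fold enrichment of 8.59 after dexamethasone, and an estradiol peak of pileup 14 and 7.44-fold began at the next base, 88343984. On chromosome 11, the region from 22851294 to 22851411 had 19 tags and lay 6 bp from a vehicle peak of 16 tags, in a region that dexamethasone also called. On chromosome 4 from 82064136 to 82064256, 17 tags after dexamethasone stood 7 bp from an estradiol peak of 15 tags. On chromosome 18 from 10122191 to 10122298, 17 tags stood 14 bp from 18 tags with estradiol. On chromosome 12 from 6539851 to 6539960, 19 tags stood 16 bp from 15 tags with estradiol. In 4 of these 5 places each of the facing regions was called in a single library and no region was called in both, although a merge that tolerated small gaps would have counted them as shared.

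The other neighbours had a dexamethasone peak of their own, so the dexamethasone list held a pair of peaks there. For the 179 regions of this kind within 1 kb, the dexamethasone summits lay a median of 388 bp apart (358 to 412), with quartiles of 304.5 and 508 bp. The neighbouring region was usually the weaker of the pair, which is partly fixed by the rule, since it had to be missed in the estradiol and vehicle lists. Its fold enrichment was below that of its nearest region in 134 of the 179 pairs within 1 kb (74.9%, 67.8 to 81.0) and in 138 of the 182 pairs beyond it (75.8%, 68.9 to 81.9). Over all 361 pairs the median fold enrichment was 8.63 in the neighbouring regions and 10.0 in their nearest regions, and the median ratio was 0.863 (0.842 to 0.884). The pileup was lower than at the nearest region in 274 pairs, higher in 75 and equal in 12.

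**Figure D3:**
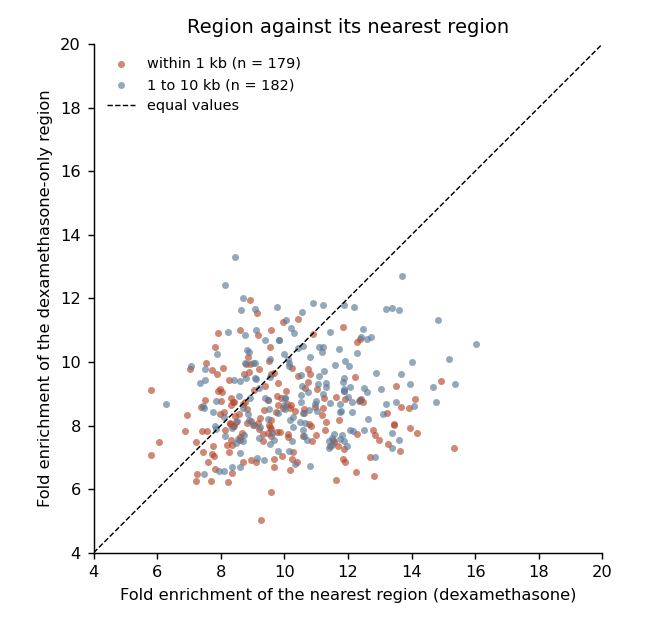
Fold enrichment over local background in the dexamethasone library of each neighbouring dexamethasone-only region (y axis) against that of its nearest region (x axis), for the 361 pairs in which both have a dexamethasone peak; red, within 1 kb; blue, 1 to 10 kb; dashed line, equal values. Of the points, 272 lie below the line.

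The nearest regions had somewhat lower fold enrichment than their lists with estradiol and vehicle. With dexamethasone their fold enrichment equalled that of the list, which also holds the dexamethasone-only peaks. It was below that of regions shared by dexamethasone and estradiol or called in all 3 lists. In the dexamethasone list the 346 nearest regions that were called there had a median fold enrichment of 10.0, the same as the list as a whole. Their median pileup was 25 tags (24 to 26) against 21 for the list. Regions shared by dexamethasone and estradiol had medians of 22 tags and 10.4-fold in this list, and regions called in all 3 lists 30 tags and 12.1-fold. In the estradiol list 376 had a median fold enrichment of 8.94 (8.78 to 9.16), against 9.44 for the list. In the vehicle list 142 had a median of 9.01 (8.74 to 9.33), against 9.54. Ranked by the fold enrichment of the single nearest estradiol or vehicle peak in its own list, the first was an estradiol peak on chromosome 15 from 86338133 to 86338263, in a region that had 12.5-fold enrichment and 29 tags in dexamethasone, 14.5-fold and 32 tags in estradiol, and no vehicle call. The neighbouring region 5588 bp away, from 86343851 to 86343947, had 18 tags and 11.0-fold enrichment after dexamethasone and no call elsewhere. Next in this ranking came an estradiol peak on chromosome 13 from 111358572 to 111358802, in a region called at 14.9-fold with dexamethasone, 13.9-fold with estradiol and 13.2-fold with vehicle. A dexamethasone-only region from 111358406 to 111358512, of 23 tags and 9.42-fold, stood 60 bp from it. The following 3 neighbouring regions began at 132276026 on chromosome 6, at 183133637 on chromosome 1 and at 34207289 on chromosome 20, between 2804 and 4315 bp from estradiol peaks of 12.9-fold to 13.5-fold enrichment.

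In the dexamethasone library, neighbouring regions were taller than isolated ones, though hardly so at like background, and stood less far above their surroundings. Their median pileup was 21 extended tags (20 to 21), against 18 (18 to 18) in isolated regions. Their median fold enrichment was 8.66 (8.48 to 8.75), against 9.35 (9.31 to 9.39). The local background, which the peak caller averages over a window of 10000 bp and which was recovered from pileup and fold enrichment, had a median of 1.49 extended tags (1.42 to 1.52) around neighbouring regions and 0.979 (0.970 to 0.997) around isolated ones. Pileup and background were both higher, and the strength of the call was close: the median −log10 p was 17.3 in both. The p-value comes from pileup and this background, and every call had to pass the same cutoff. A region on higher background thus needed a higher pileup to be called, so the joint rise is partly fixed by the calling. In 5 groups by background, from lowest to highest, the median pileup of neighbouring regions was 16, 17, 18, 19 and 23 tags. In isolated regions of the same groups it was 15, 17, 18, 20 and 22 tags. Regions called in all 3 lists had 30 tags, 12.1-fold enrichment and a −log10 p of 28.4 in the same library. Neighbouring and isolated regions had to be missed in the estradiol and vehicle lists, so this contrast is partly fixed by the rule. The median length was 116 bp (112 to 122) in neighbouring and 122 bp (120 to 123) in isolated regions. Of these, 27.7% and 25.4% were 100 bp or shorter, close to the shortest call of 89 bp. At like pileup, neighbouring regions were shorter. In 5 groups by pileup, from lowest to highest, their median length was 105, 103, 110, 117 and 132 bp. In isolated regions of the same pileup groups it was 108, 114, 125, 132 and 149 bp.

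These differences were seen within 5 kb of the neighbour, which is the reach of the background window on either side of a peak. The median background was 1.63 at up to 1 kb (1.52 to 1.74) and 1.75 from 1 to 5 kb (1.63 to 1.94). It was 1.02 from 5 to 10 kb (0.979 to 1.13), 1.00 from 10 to 20 kb (0.970 to 1.06) and 0.952 beyond 100 kb (0.934 to 0.970). The median pileup was 21, 23, 18.5, 18 and 18 tags at these distances, and the median fold enrichment 8.37, 8.24, 9.33, 9.53 and 9.39. The 136 neighbouring regions from 5 to 10 kb thus had values close to those of isolated regions on all 3 measures. A window that includes the neighbour also counts the tags of the neighbour; how much of the higher background these tags make up was not tested.

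**Figure D4:**
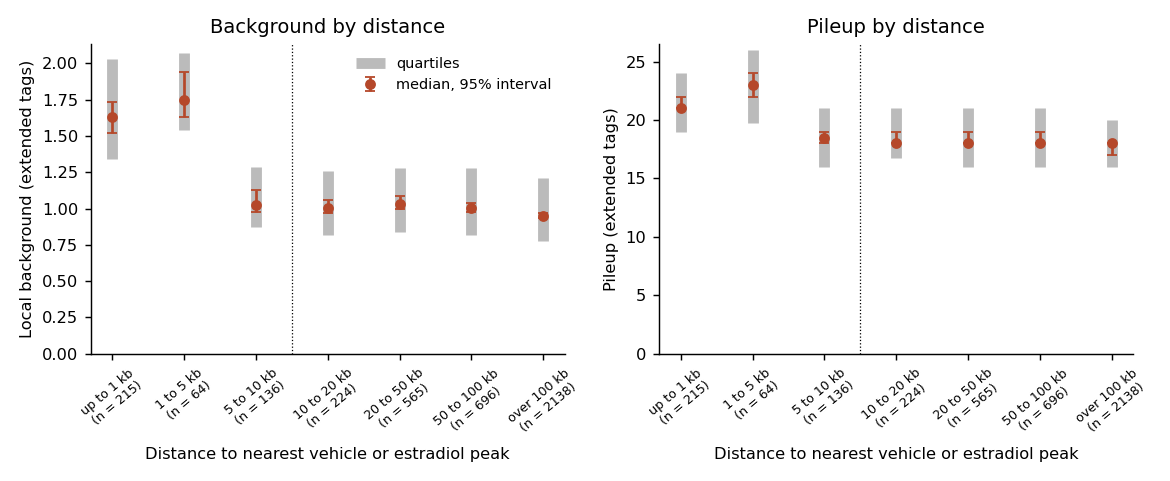
Local background (left) and pileup (right) in the dexamethasone library, both in extended tags, of all 4038 dexamethasone-only regions by distance to the nearest estradiol or vehicle peak (x axis); points are medians with 95% intervals, grey bars quartiles, and the dotted line marks the 10 kb limit of the rule. The values step down at 5 kb, where the median background is 1.75 before and 1.02 after, and not at the 10 kb limit.

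The same step appeared in regions that other treatments also called. Among regions shared by dexamethasone and estradiol, the median background in the dexamethasone library was 2.01 with a separate estradiol or vehicle region within 5 kb (1.95 to 2.23), 1.19 with one from 5 to 10 kb (1.09 to 1.25) and 1.11 beyond (1.09 to 1.13). Among regions called in all 3 lists it was 2.32 (2.13 to 2.46), 1.60 (1.44 to 1.78) and 1.49 (1.45 to 1.51). Fold enrichment was lower within 5 kb in these classes as well, at 9.13 against 10.5 beyond 10 kb in the regions shared with estradiol and at 10.4 against 12.2 in those called in all 3 lists.

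**Figure D5:**
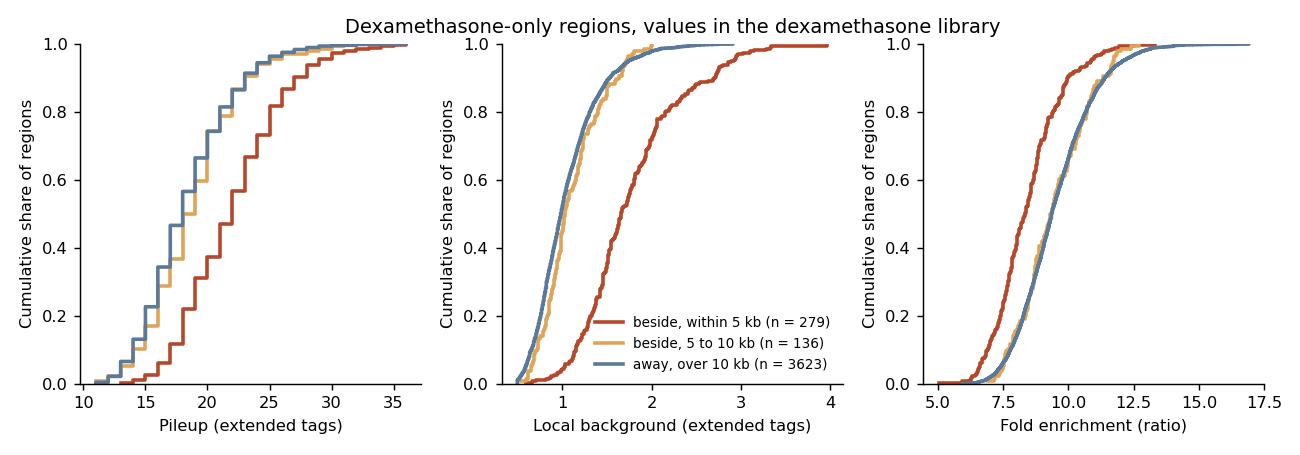
Cumulative share of dexamethasone-only regions (y axes) by pileup, local background and fold enrichment in the dexamethasone library (x axes), for neighbouring regions within 5 kb (red, 279), neighbouring regions from 5 to 10 kb (orange, 136) and isolated regions (blue, 3623). The red curves lie to the right for pileup and background and to the left for fold enrichment, and the orange curves run beside the blue ones.

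The share of dexamethasone-only regions with a neighbour was higher where the local background was higher. This background also counts the tags of a neighbour within 5 kb, where 279 of the 415 neighbouring regions had theirs. Sorting by background is therefore not independent of having a neighbour. When the 4038 dexamethasone-only regions were divided into 5 groups of about equal size by background, the share that had a neighbour was 2.70% in the lowest group (22 of 814, 1.70 to 4.06), 5.71% in the middle one (46 of 806, 4.21 to 7.54) and 29.3% in the highest (236 of 806, 26.2 to 32.6). The median fold enrichment was 9.93 in neighbouring and 9.80 in isolated regions of the lowest group, and 9.39 and 9.43 in the middle one. In the second-highest group it was 8.84 in neighbouring and 9.31 in isolated regions, and the median length was 107 and 131 bp. In the highest group it was 8.08 in neighbouring and 8.43 in isolated regions, and the median background was 1.80 and 1.62. By pileup, the share with a neighbour was 3.53% among regions of 11 to 15 tags (30 of 851) and 22.1% among those of 23 to 36 tags (139 of 628). In each of 5 groups by pileup the median fold enrichment was lower in neighbouring regions: it was 7.81 in neighbouring and 8.51 in isolated regions of 11 to 15 tags, and 8.85 and 10.7 in those of 23 to 36 tags. At like pileup, fold enrichment is set by background, so this restates the higher background and is no separate result. The median background was 0.859 and 0.765 in the group of 11 to 15 tags, and 1.98 and 1.37 in that of 23 to 36 tags.

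By fold enrichment, the neighbouring regions were led by the stretch from 92279894 to 92280016 on chromosome 9, which had 34 tags and stood 13.3-fold over local background. The nearest region, 2755 bp away, was called in all 3 lists, at 8.44-fold with dexamethasone, 9.06-fold with estradiol and 8.87-fold with vehicle, so here the dexamethasone-only region was the stronger of the pair. On chromosome 10 from 92690254 to 92690479, 29 tags gave 12.7-fold enrichment, and a region at 13.7-fold with dexamethasone, 13.9-fold with estradiol and 9.51-fold with vehicle stood 9077 bp away. On chromosome 16 from 53133566 to 53133769, 30 tags gave 12.5-fold, and an estradiol peak of 16 tags and 6.88-fold stood 110 bp away with no dexamethasone call. The other 7 of the 10 highest had fold enrichments from 11.7 to 12.4. They began at 88433005 on chromosome 6, 49005457 on chromosome 19, 26368215 on chromosome 17, 20937433 on chromosome 14, 140105580 on chromosome 5, and 25118376 and 75510899 on chromosome 16. None of the 10 was called in the combination library, and 8 of the 10 lay more than 1 kb from their neighbour. The 5 highest by pileup held 32 to 36 tags. The first, on chromosome 12 from 83080538 to 83080649, had 36 tags over a background of 2.78 and a neighbour of 38 tags in dexamethasone and 26 in estradiol, 209 bp away. The next began at 54694530 on chromosome 19, with 35 tags over a background of 2.95. It was followed by the region on chromosome 9 named above (34 tags over 1.63), by 249132876 on chromosome 1 (33 tags over 3.97) and by 89705788 on chromosome 5 (32 tags over 1.86). Tall neighbouring regions thus stood on backgrounds above the 1.49 of the set.

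A few regions gathered several dexamethasone-only calls. Of the estradiol or vehicle regions with any in reach, 401 had 1, 20 had 2, 1 had 3 and 1 had 4. The region with 4, on chromosome 5 from 140098280 to 140098733, was called at 11.9-fold with dexamethasone, 9.92-fold with estradiol and 7.26-fold with vehicle. A pair of dexamethasone-only regions lay on each side of it: from 140090720 to 140090810 and from 140090921 to 140091011, at 9.50-fold and 9.08-fold, and from 140105580 to 140105692 and from 140105773 to 140105902, at 11.8-fold and 9.08-fold. All 4 were 6847 to 7497 bp from the nearest estradiol peak of the central region and had backgrounds between 0.863 and 1.21. The region with 3, on chromosome 19 from 54693867 to 54694022, was called at 5.80-fold with dexamethasone, 6.60-fold with estradiol and 7.44-fold with vehicle. Its dexamethasone-only neighbours had 13 tags from 54683835, 27 tags from 54693721 and 35 tags from 54694530. The first 3 of the 20 regions with 2 were on chromosome 1 from 15853066 to 15853149 (estradiol only, 7.19-fold), chromosome 1 from 249200663 to 249200770 (8.40-fold with dexamethasone, 8.94-fold with estradiol) and chromosome 13 from 48612084 to 48612256 (9.59-fold with dexamethasone, 8.16-fold with estradiol).

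Chromosome 1 held the most neighbouring regions and the highest share: 59 of its 381 dexamethasone-only regions were neighbouring (15.5%, 12.0 to 19.5). On all chromosomes together the share was 10.3% (415 of 4038). Chromosome 1 also held the most regions with an estradiol or vehicle peak, 522. The same share among all merged regions of each chromosome was not computed. Nothing particular to dexamethasone-only regions is therefore read from this ranking. Chromosomes 19 and 8 followed, with 22 of 158 (13.9%, 8.94 to 20.3) and 26 of 192 (13.5%, 9.04 to 19.2). The lowest shares were 5 of 96 on chromosome X (5.21%, 1.71 to 11.7) and 7 of 131 on chromosome 17 (5.34%, 2.18 to 10.7). The median local background of the dexamethasone-only regions was 1.06 on chromosome 1 and 0.681 on chromosome X. It was 1.19 on chromosome 12, where 31 of 255 were neighbouring (12.2%, 8.41 to 16.8). On chromosome 19 it was 0.908, below the 1.19 of chromosome 10, where 21 of 203 were neighbouring (10.3%, 6.52 to 15.4). Whether background bears on the shares of the chromosomes was not tested.

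The combination library was the measurement that the choice of members did not use. It called 1 of the 415 neighbouring regions (0.241%, 0.00610 to 1.34), 2 of the 3623 isolated ones (0.0552%, 0.00669 to 0.199) and 1.16% of all merged regions (104 of 8975). Of the regions shared by dexamethasone and estradiol, it called 11 of 2526 (0.435%, 0.218 to 0.778). Of those shared by dexamethasone and vehicle, it called 0 of 199 (interval up to 1.84). A low share was thus not confined to dexamethasone-only regions. Of the regions called in all 3 lists, 75 of 1640 were called there (4.57%, 3.61 to 5.70), and of the estradiol-only regions 10 of 514 (1.95%, 0.937 to 3.55). The call lay on chromosome 19 from 27738455 to 27738546, which had 12.2-fold enrichment and 22 tags with both hormones and 10.4-fold enrichment and 28 tags with dexamethasone, and was not called with estradiol or vehicle. The nearest estradiol peak was 5671 bp away, and 2 more combination peaks lay 5688 and 6181 bp away. Peaks were not filtered here for places prone to artefact signal, and this place was not checked for it. At this number of peaks, whether adding estradiol changed the opening of the neighbouring regions was not detectable.

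At the limit of the rule, the last regions inside lay 9911, 9982 and 9987 bp from their neighbour and had pileups of 20, 16 and 13 tags. The first regions outside lay 10038, 10095 and 10115 bp away and had 20, 21 and 14 tags.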

How the data were processed

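Peak tables from 4 ATAC-seq libraries, 1 for each treatment, were used. The authors ran MACS 2.1.0.20140616 separately on every library and gave it no control, per the file headers. The p cutoff was 1e-10, the local background window 10000 bp and the tag size 50 bp, with duplicates reduced to 1 tag. Tags were extended to a modelled fragment length and not shifted to transposase cut sites, so a height counts extended tags. Bowtie 1.1.2 and hg19 are named in the submitters' processing notes. Pileup is a deposited signal in whole tags without depth scaling. Fold enrichment, as deposited, is the ratio of pileup to local background after adding 1 to each. The deposited −log10 p and −log10 q columns test the same quantities, although the header announces that q is left out. The other deposited columns are positions and lengths. All are the authors' values; pileups of different libraries, where set side by side, are not scaled for depth.

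Overlapping peaks were merged, distances taken between facing edges, and background recovered as (pileup + 1) / fold − 1; Poisson p from it met the deposited −log10 p to within 9.40e-05 in every list. Python 3.11.15, numpy 2.4.6, pandas 2.3.3, scipy 1.17.1 and matplotlib 3.10.9 were used. The merging and distance code was tested on simulated data. The members, classes and alternatives were chosen with earlier results of these data known. Named regions are the 10 highest by fold enrichment, the 5 highest by pileup, the 5 closest to a neighbour, the 5 whose nearest estradiol or vehicle peak had the highest fold enrichment in its own list, those called in the combination library, and those beside the 5 regions with the most members in reach. Gene lists, start sites and motifs were planned but not used, since no genome or genes of hg19 were used here.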

Additional observations from a re-analysis of the deposited data

How the results depend on the processing

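No paired analysis was possible because each treatment has 1 library. The number of regions moved most when only the strongest peaks were kept, and also with the neighbour distance, the neighbour list and the extension of peaks. Extending peaks by 500 bp left 196 neighbouring regions, all of them among the 415, which were 5.24% of dexamethasone-only regions, with a median fold enrichment of 8.96, a median background of 1.23 and 0% within 1 kb, which the extension itself removes. The strongest 1914 peaks of each list left 25 (5.61%, 11.7-fold, background 1.63), of which 0% were called in the combination library. Neighbours within 5 kb gave a share of 6.91%, 8.35-fold, a background of 1.66, 77.1% within 1 kb and 0% in the combination library. Neighbours within 20 kb gave 639 regions (15.8%, 8.86-fold, background 1.28, 33.6% within 1 kb). Vehicle peaks alone as neighbours gave 152 (3.76%, 8.41-fold, background 1.66). A −log10 q of at least 10 gave a share of 9.11%, and requiring peaks to share 50% of the shorter one gave 11.7%, with 58.5% within 1 kb. Summit distances, estradiol peaks alone and leaving out chromosome 1 (356 regions, 9.73%) kept all values within their intervals. A fold enrichment of at least 5 returned the same 415 of 4038 regions. No dexamethasone-only region had less than 5.03-fold enrichment, so this setting could not change the result. The results on the 1 kb split, on background and without chromosome 1 were added after seeing the data. The planned motif and start-site results were not run. The single library for each treatment and the depth of the libraries limit every value.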

Other observations

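Most 1 Mb windows with any neighbouring region held 1 (269 windows), and 58 held 2, 4 held 3, 2 held 4 and 2 held 5. The window at the end of the long arm of chromosome 1 held 5, between 249120417 and 249200981, all within 350 bp of a region that dexamethasone also called, with pileups of 23 to 33 tags and a median background of 2.45. The other window with 5, on chromosome 13 between 111358406 and 111863116, had a median background of 1.15, and its regions lay 60 to 7636 bp from their neighbours. A second window on chromosome 1 held 4 regions between 59042992 and 59762313, at 8.95-fold to 10.9-fold enrichment and 188 to 9405 bp from their neighbours.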
